A study of Mus musculus with 4 samples.

Results

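The genes described here are 53 named genes whose RNA was at least 4-fold lower in the testes of Rfx2 mutant mice than in control testes. They were selected on the measured values of this same comparison, so their lower level in the mutants is a description and was not tested. A gene was taken when its FPKM (fragments per kilobase of transcript, scaled for sequencing depth) reached 1 or more in 2 or more of the 4 samples, when the mean of FPKM + 1 in the mutants was at most 0.25 of that in the controls, and when the higher of the mutant samples was still below the lower of the controls. Of 22311 gene symbols, 12985 passed the filter on low values and 130 of these met the 4-fold rule, which is 1.0% of the genes past the filter. Among the 130, 41 carry RIKEN clone symbols and 36 belong to large symbol families that were set aside by name, such as Ccdc, Tekt, Rsph, Ttc and the dyneins. The remaining 53 all passed the filter, since the rule requires it. In GENCODE M1, the annotation used here, all are listed as protein-coding, and they lie on 18 chromosomes.

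Total RNA was taken from whole testes of 24-day-old male mice, with 2 samples of homozygous mutants (rfx2-/-) and 2 samples of controls. In the mutant allele, a neomycin-resistance cassette stands in place of the exons that encode the DNA-binding domain of RFX2, in every cell, and all mutant mice descend from a single embryonic stem cell clone. On the labels the controls are wild type and the strain is DBA, whereas the study's methods describe heterozygous controls on a mixed background of 129/s6 and C57BL/6, so control is used here for either. The study describes the samples of a genotype as independent biological samples. FPKM of Rfx2 was 36.7 and 39.8 in the mutants against 123 and 89.4 in the controls. Those values are of the whole gene, including exons that the mutant allele keeps, so they do not measure the loss of the replaced exons. The width of the deposited confidence bounds corresponds to between 17.2 and 20.3 M fragments per sample.

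RFX transcription factors bind a DNA motif called the X-box, an imperfect inverted repeat, and in animals from worms to mammals they switch on genes needed to build cilia. The sperm tail is a modified motile cilium that grows from the centriole of round spermatids, the haploid cells formed by meiosis. Day 24 falls in the first wave of mouse spermatogenesis, when round spermatids are present and elongating spermatids are beginning to appear. Because whole testes were measured, fewer cells of a type and less RNA per cell cannot be told apart.

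X-boxes near the start sites are shown because RFX proteins recognise this motif and because the DNA sequence was not used to choose the genes. The motif was searched as 2 arms of 6 bases with a gap of 0 to 3 bases, on both strands, in the NCBIM37 (mm9) genome. An exact match lay within 1000 bases of the annotated start of 7 of the 53 genes (13.2%), against 22 of 73 of the other genes lowered at least 4-fold that had an annotated start (30.1%) and 586 of the 12728 such genes past the filter (4.604%). Sites before the start are given below on the strand of the gene, 5′ to 3′, with the X-box in capitals and 8 flanking bases in lower case on each side.
Zswim2, chr2:83781405-83781418, minus strand: gaaccaccGTTACCGCAGCAACcgcgctgc
Cib4, chr5:30848229-30848242, minus strand: gaatgctgGTCACCATGGTAACagaatcac
Gm4871, chr5:145793635-145793647, minus strand: tgatgctgGTTACCAGGTAACcagaggcc
Fam92b, chr8:122701375-122701387, minus strand: gatggcccGTTGCCTGGCAACcaggcagc
Fam92b, chr8:122701426-122701438, minus strand: aggccctgGTTGCCCAGCAACcagctggg
Atp6v1b1, chr6:83692077-83692089, plus strand: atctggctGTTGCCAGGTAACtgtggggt
Counting the annotated start base as 0, the site of Gm4871 spanned positions -14 to -2, those of Cib4 and Zswim2 -33 to -20, those of Fam92b -18 to -6 and -69 to -57, and that of Atp6v1b1 -934 to -922. The remaining exact matches lay after the start, at positions 202 to 215 for Tmem89 and 797 to 810 for Ndufa4l2.

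Many more of the 53 genes carried a near match close to the start. Within 100 bases, a site with at most 1 mismatch, not counting the free base of the motif, was found at 22 of the 53 genes (41.5%), at 35 of 73 other lowered genes (47.9%) and at 9.71% of the genes past the filter. This search was chosen after exact matches had been counted. The sites of 6 of these genes are shown as examples, and each lies just before the start like the exact matches of Cib4 and Zswim2. The site of Cdk20 keeps to 1 mismatch only when read on the strand opposite to the gene.
Apobec4, chr1:154597649-154597662, plus strand: ttccaaacGTTGCCATGGCACCaattcaac
Sel1l2, chr2:140215462-140215474, minus strand: aggaagtgGTTGCTTAGCAACtgagtctt
Ankmy1, chr1:94799499-94799512, minus strand: gcgtggccGTCTCCACGGCAACgtgacgca
Cdk20, chr13:64533833-64533845, plus strand: gacgcgttATTGCTAGGCAACgcttgcag
Rtdr1, chr10:74495333-74495345, minus strand: cgctggcaGTCTCCTAGCAACcaggtcgc
Fam183b, chr11:58615466-58615478, minus strand: gaacatccGTTGCCTGGAAACtgtagaag
They span positions -32 to -19 at Apobec4, -32 to -20 at Sel1l2, -29 to -16 at Ankmy1, -17 to -5 at Cdk20, -14 to -2 at Rtdr1 and -16 to -4 at Fam183b. With an exact match required, the shares within 300 bases were 9.43%, 26.0% and 2.83% in the same order of gene sets, and within 100 bases 7.55%, 20.5% and 1.52%. A match describes the DNA letters only, and binding was not measured in these files. The study assayed RFX2 binding separately, by chromatin immunoprecipitation and PCR at chosen promoters, with primers for Apobec4 among those listed. It reports that most of the promoters examined were precipitated. By its own scan for the motif, the study also predicted as RFX2 targets all testis-specific genes that it verified by real-time PCR. That scan scored matches in another way than the exact search used here.

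**Figure D1:**
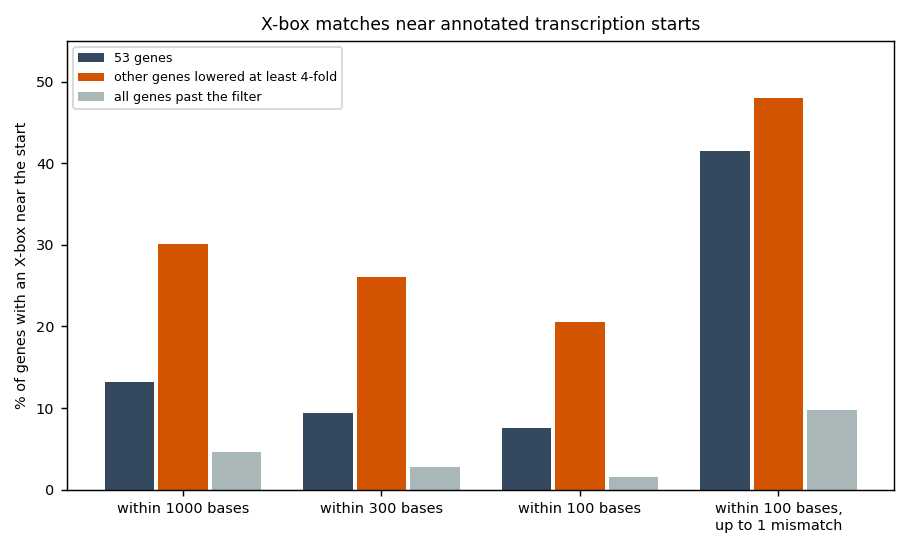
Share of genes (y axis, %) with an X-box near the annotated start for 3 windows with an exact match and for 100 bases with up to 1 mismatch. Bars stand for the 53 genes, the other genes lowered at least 4-fold and all genes past the filter. The 53 genes lie between the other sets in each window, and come near the other lowered genes (41.5% and 47.9%) once a mismatch is allowed.

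In control testes the 53 genes were expressed at a median of 12.7 FPKM, with means of the 2 controls of up to 104 FPKM (Tmem190). The median over the other lowered genes was 39.0 FPKM, and over all genes past the filter 9.45 FPKM. The mutant mean was between 0.0935% (Zfp474) and 21.4% (Fam183b) of the control mean, with a median of 6.66%. It was under 2% for 17 genes, from 2% to under 5% for 7, from 5% to under 10% for 12 and at least 10% for 17. Both mutants were under 1 FPKM for 30 genes, whereas both stayed at 5 FPKM or more for 5 genes. On the log2 scale of the ratio of mean FPKM + 1 the median was -2.72, beside -2.96 for the other lowered genes and 0.03 for all genes past the filter. The deposited confidence bounds of both mutants lay below those of both controls for 52 of the 53 genes, Kcnip2 being the exception. This follows largely from the rule, which asks for both mutants below both controls and a 4-fold lower mean.

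**Figure D2:**
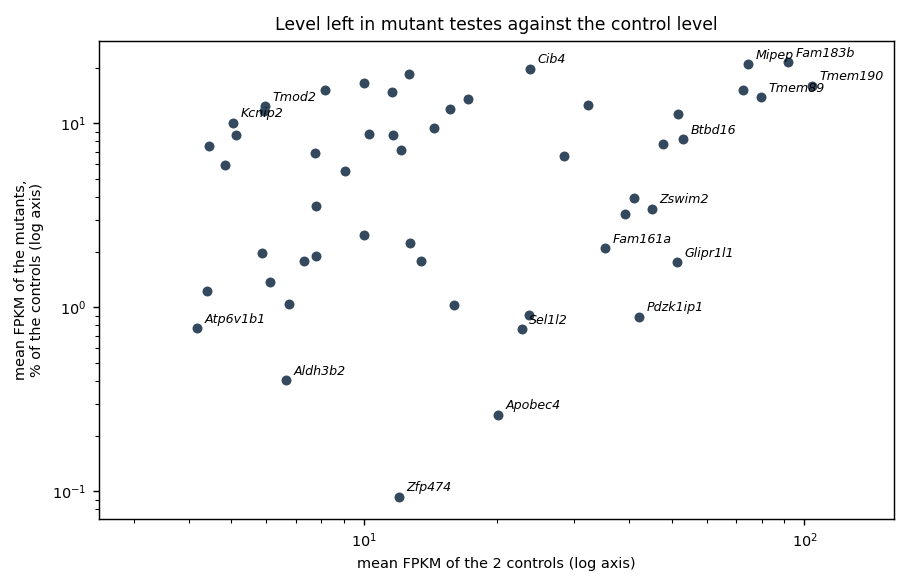
Mean FPKM of the 2 mutants as a percentage of that of the 2 controls (y axis, log) against the mean control FPKM (x axis, log), 1 point for each of 52 of the 53 genes. Genes with 1% or less of the control level are found at control levels from 4.18 FPKM (Atp6v1b1) to 42.2 FPKM (Pdzk1ip1), and the most abundant genes, such as Tmem190 and Fam183b, kept more than 10%.

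A group of 5 genes is known from cilia and flagella, directly or through studied relatives. Fam161a, a basal body and connecting cilium protein (chr11:22907531-22930788), was at 0.765 and 0.717 FPKM in mutants 1 and 2 and at 36.3 and 34.4 FPKM in controls 1 and 2. These values correspond to about 40 and 32 fragments in the mutants and 1814 and 1818 in the controls. The samples of each genotype differed little from each other here, and 2.10% of the control level was left. Rtdr1, now named Rsph14 and related to the radial spokes of the axoneme, was at 0.168 and 0.315 FPKM against 17.3 and 9.69 FPKM. Fam92b, now Cibar2, is a partner of Chibby at the ciliary base and was at 0.101 and 0.0393 FPKM against 7.75 and 5.76 FPKM. Rtdr1 and Fam92b thus came down to 1.79% and 1.04% of the control level. More RNA was left of Fam183b, a small protein of motile cilia, which was at 14.1 and 25.1 FPKM against 113 and 70.1 FPKM. Dlec1, a protein tied to the formation of the sperm tail, was at 2.26 and 2.45 FPKM against 14.3 and 11.03 FPKM. For these genes 21.4% and 18.6% of the control level remained.

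Both protein kinases among the genes belong to the cyclin-dependent kinase group and have been tied to ciliary length or signalling. Cdk20 was at 4.31 and 3.85 FPKM in the mutants and 34.5 and 30.0 FPKM in the controls, with 12.6% left. Cdkl1, a CDK-like kinase, was at 0.0892 and 0.209 FPKM against 8.90 and 6.71 FPKM, with 1.91% left. The other 4 tested genes of the Cdkl family did not show a change that passed the test. Their log2 ratios of group means ran from -0.60 (Cdkl2) to 0.68 (Cdkl4), so the tested Cdkl genes did not all move with Cdkl1.

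A further 4 genes encode calcium-binding proteins of the EF-hand type. Cib4, a relative of calcium- and integrin-binding protein, was at 7.13 and 2.33 FPKM in the mutants and at 25.1 and 22.7 FPKM in the controls. Mutant 2 was at 0.327 of the level of mutant 1, and the confidence bounds of the mutants did not overlap. Capsl, a calcyphosine-like protein, was at 0.267 and 0.730 FPKM against 10.98 and 7.11 FPKM. Necab2, a neuronal calcium-binding protein, was at 0.319 and 0.352 FPKM against 4.54 and 4.36 FPKM. Kcnip2, a calcium sensor of potassium channels, was at 0.430 and 0.588 FPKM against 8.38 and 1.72 FPKM. The controls of Kcnip2 differed 4.88-fold, more than those of any other gene of the 53, and the bounds of its control 2 overlapped those of mutant 2.

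Next are 6 genes of different families (zinc finger, BTB, SEL1-repeat and deaminase), where the median gene kept 1.07% of its control level. The role groups were formed after the values had been seen, so this median does not describe a class of genes. Zfp474, a zinc finger protein, was at 0 and 0.0225 FPKM in the mutants and 11.8 and 12.2 FPKM in the controls. This was the smallest share left of the 53, with 589 and 644 fragments behind the control values. Apobec4 (chr1:154597681-154604674), a testis-expressed relative of the AID and APOBEC cytidine deaminases, was at 0.0486 and 0.0570 FPKM against 20.5 and 19.9 FPKM. Its deposited bounds reached 0 in both mutants, and the controls were nearly equal. Sel1l2, related to an endoplasmic reticulum quality-control protein, was at 0.214 and 0.135 FPKM against 25.5 and 20.3 FPKM. Zswim2, a SWIM and RING finger ubiquitin ligase (chr2:83755236-83781385), was at 1.34 and 1.76 FPKM against 49.7 and 40.3 FPKM. The 4 genes of this paragraph so far, from Zfp474 to Zswim2, and Fam161a are those that the study also assayed by real-time PCR. Rnf112, a RING finger protein with a GTPase domain, was at 0.0841 and 0.0844 FPKM against 6.62 and 5.64 FPKM. Btbd16, a BTB-domain protein of unknown role, was at 5.23 and 3.45 FPKM against 57.3 and 48.7 FPKM and kept the most in this group, 8.19%.

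**Figure D3:**
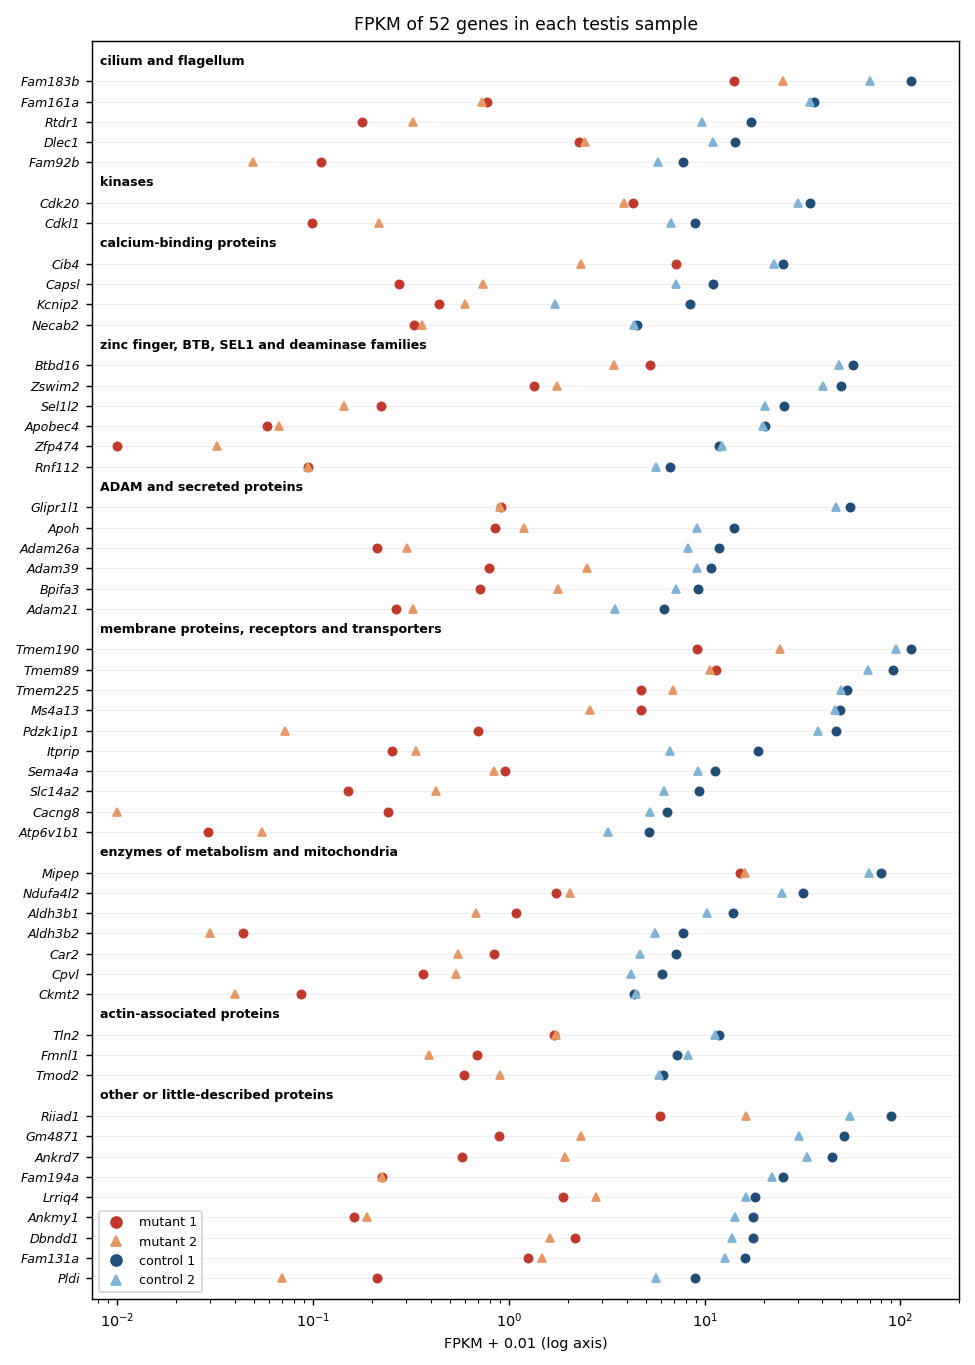
FPKM + 0.01 (x axis, log) of 52 of the 53 genes in mutant 1, mutant 2, control 1 and control 2, with genes grouped by what they are known for and ordered within a group by their control level. For every gene both mutants lie to the left of both controls, as the rule requires.

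Another 6 genes encode ADAM proteins, which are membrane-anchored disintegrin and metalloprotease relatives found on sperm, or secreted proteins. Adam26a was at 0.203 and 0.293 FPKM in the mutants and 11.8 and 8.21 FPKM in the controls. Adam21 was at 0.257 and 0.316 FPKM against 6.20 and 3.50 FPKM. Adam39 was at 0.788 and 2.51 FPKM against 10.8 and 9.17 FPKM. The share left thus ran from 2.47% for Adam26a to 16.5% for Adam39, where mutant 2 was higher than mutant 1. Glipr1l1, a sperm surface protein of the CAP superfamily, stood out with 0.906 and 0.894 FPKM against 55.5 and 47.1 FPKM. Bpifa3, of the lipid-binding BPI fold family, was at 0.705 and 1.78 FPKM against 9.23 and 7.14 FPKM. Apoh, a phospholipid-binding plasma protein made mainly by the liver, was at 0.842 and 1.18 FPKM against 14.2 and 9.18 FPKM. Exons of Apoh overlap those of Prkca on the opposite strand, and strand-specific counting is not stated in the sources used here.

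The largest group, 11 genes, encodes membrane proteins, receptors, transporters or their subunits. The most abundant of all 53 in the controls was Tmem190, a transmembrane protein of the sperm acrosome, at 113 and 94.8 FPKM. It was at 9.13 and 24.1 FPKM in the mutants, which is 16.6 ± 10.6 FPKM against 104 ± 13.2 FPKM in the controls (SD, n = 2 each). Tmem89 was at 11.5 and 10.7 FPKM against 91.6 and 68.1 FPKM. Among the abundant genes of this group the mutants kept between 7.68% (Ms4a13) and 16.0% (Tmem190), apart from Pdzk1ip1. Pdzk1ip1, a small membrane protein that binds PDZ domains (chr4:114761313-114766504), had the largest fall of the 53 on the log2 scale of FPKM + 1 (-4.97), with 0.689 and 0.0621 FPKM against 46.6 and 37.8 FPKM. Tmem225, a membrane protein of sperm, was at 4.70 and 6.89 FPKM against 53.2 and 49.9 FPKM. Ms4a13, of the membrane-spanning MS4A family, was at 4.75 and 2.58 FPKM against 49.0 and 46.5 FPKM. The controls of Tmem225 and Ms4a13 lay within 1.07-fold of each other, and the mutants of both genes had bounds that did not overlap.

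Lower levels were seen for other membrane genes. Itprip, which interacts with the inositol trisphosphate receptor, was at 0.242 and 0.327 FPKM in the mutants and at 18.8 and 6.68 FPKM in the controls. Its controls differed 2.81-fold, and its exons overlap on the same strand those of Wdr96, itself at 17.5 and 20.5 FPKM against 42.7 and 44.5 FPKM. The split of reads between Itprip and Wdr96 is therefore uncertain. Slc14a2, a urea transporter, was at 0.142 and 0.415 FPKM against 9.36 and 6.23 FPKM. Atp6v1b1, a subunit of the proton pump that acidifies vesicles, was at 0.0192 and 0.0451 FPKM against 5.18 and 3.19 FPKM. Cacng8, an auxiliary subunit of calcium channels and AMPA receptors, was at 0.231 FPKM in mutant 1 and listed at 0 in mutant 2, against 6.44 and 5.29 FPKM. Sema4a, a membrane semaphorin that guides axons and immune cells, was at 0.953 and 0.837 FPKM against 11.3 and 9.24 FPKM. Mutant values of Pdzk1ip1, Slc14a2, Cacng8 and Atp6v1b1 rest on 11.9 fragments or fewer where the deposited bounds give a number, so their shares left (0.768% to 3.57%) are imprecise.

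Enzymes are encoded by 7 genes, several of them mitochondrial. Mipep, a peptidase that trims proteins imported into mitochondria, was the most abundant, at 15.1 and 16.0 FPKM in the mutants and 79.6 and 69.4 FPKM in the controls. Ndufa4l2, related to a subunit of the respiratory chain, was at 1.74 and 2.04 FPKM against 31.9 and 24.9 FPKM. Ckmt2, the sarcomeric mitochondrial creatine kinase, was at 0.0775 and 0.0303 FPKM against 4.33 and 4.47 FPKM. The mitochondrial genes thus differed widely in what was left, from 1.22% for Ckmt2 to 20.9% for Mipep. Aldh3b1 and Aldh3b2, aldehyde dehydrogenases that lie 42566 bases apart on chromosome 19, fell to 7.21% and 0.403%. Aldh3b1 was at 1.08 and 0.668 FPKM against 13.9 and 10.3 FPKM, and Aldh3b2 was at 0.0339 and 0.0198 FPKM against 7.75 and 5.57 FPKM. Car2, a cytosolic carbonic anhydrase, was at 0.836 and 0.538 FPKM against 7.15 and 4.69 FPKM. Cpvl, a serine carboxypeptidase, was at 0.357 and 0.530 FPKM against 6.06 and 4.19 FPKM. Car2 also stands on the list of elongating spermatid markers used below.

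Another 3 genes encode proteins that bind or arrange actin filaments, and they kept between 6.86% and 14.8%. Fmnl1, a formin that elongates filaments, was at 0.679 and 0.381 FPKM in the mutants against 7.23 and 8.22 FPKM in the controls. Tln2, a talin that links integrins to actin, was at 1.69 and 1.74 FPKM against 11.9 and 11.2 FPKM. Tmod2, a tropomodulin that caps filament ends, was at 0.579 and 0.898 FPKM against 6.12 and 5.81 FPKM. Fmnl1 was among the 3 of the 53 genes with control 2 above control 1, together with Zfp474 and Ckmt2.

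The remaining 9 genes have a role that is little described or not known with certainty. Ankrd7 and Ankmy1 carry ankyrin repeats, a common protein interaction fold. Ankrd7 was at 0.570 and 1.93 FPKM in the mutants and 44.7 and 33.5 FPKM in the controls. Ankmy1 was at 0.153 and 0.179 FPKM against 17.8 and 14.3 FPKM. Both came down below 4% of the control level. Fam194a, now Erich6, was at 0.216 and 0.215 FPKM against 25.2 and 22.2 FPKM. Gm4871 was at 0.883 and 2.34 FPKM against 51.8 and 30.2 FPKM. Riiad1, which carries a domain like that of the regulatory subunit of protein kinase A, was at 5.89 and 16.2 FPKM against 89.4 and 55.4 FPKM. In Ankrd7, Gm4871 and Riiad1 mutant 2 was more than 2-fold above mutant 1, and the bounds of the mutants did not overlap. Lrriq4, with leucine-rich repeats and an IQ motif, was at 1.88 and 2.79 FPKM against 18.2 and 16.2 FPKM. Dbndd1, a dysbindin-domain protein, was at 2.17 and 1.61 FPKM against 17.6 and 13.8 FPKM. Fam131a was at 1.25 and 1.47 FPKM against 16.1 and 12.8 FPKM. Of these 3 genes Fam131a kept the least (9.42%), and its exons overlap those of Clcn2 on the opposite strand. Pldi was at 0.203 and 0.0596 FPKM against 8.98 and 5.66 FPKM.

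The threshold of the rule fell in a continuous range of values. Just inside it were Tmod2 and Kcnip2 with 4.01-fold lower means of FPKM + 1, Dlec1 with 4.07-fold and Necab2 with 4.08-fold. Just outside it were Gm12695 with 3.99-fold, Olfr701 with 3.84-fold, Snora78 with 3.83-fold, Rtn1 with 3.79-fold and Itga1 with 3.71-fold lower means. Gm12695 was listed at 0 in both mutants and at 3.53 and 2.44 FPKM in the controls, so the added 1 keeps such low genes out. Only genes with a control mean of at least 3 FPKM can reach a 4-fold lower mean of FPKM + 1.

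Most of the 53 genes had tested relatives outside the 53, and most of these relatives lay within 2-fold. Relatives were taken as genes with the same symbol stem or a close name, which was decided after the values had been seen. For 30 of the 53 genes, 142 such relatives passed the filter and were not themselves among the 53. Of the 142, 137 lay within 2-fold, and the median of their log2 ratios was 0.03. None was 4-fold lower, which follows largely from the rule, since a relative that met it would be among the 53. By limma, a linear model fitted to log2(FPKM + 1) of all 12985 genes with Benjamini-Hochberg adjustment, 5 relatives were lower and 1 was higher at an adjusted p under 0.05. Over all genes tested the shares called were 2.52% lower (327 genes) and 0.308% higher (40 genes).

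The relatives that passed the test were mostly ADAM genes. Adam25 was at 1.09 and 2.51 FPKM in the mutants against 10.6 and 6.52 FPKM in the controls, and it fell by 1.79 on the log2 scale (standard error 0.32, adjusted p = 0.0269 in limma). Adam34 fell by 1.59 on the log2 scale (standard error 0.25, adjusted p = 0.0134 in limma), Adam11 by 1.003 (standard error 0.19, adjusted p = 0.0319) and Adam5 by 0.89 (standard error 0.17, adjusted p = 0.0384). The other 19 tested ADAM relatives were not called, among them the abundant sperm genes Adam2 and Adam3, whose log2 ratios were 0.03 and 0.04. Caps2, a relative of Capsl, fell by 1.76 (standard error 0.24, adjusted p = 0.00692 in limma). Car4, a membrane-bound relative of Car2, rose by 1.19 (standard error 0.21, adjusted p = 0.0245 in limma), from 0.538 and 0.448 FPKM in the controls to 1.99 and 2.87 FPKM in the mutants. The 6 tested Zswim relatives had log2 ratios of group means from -0.11 to 0.34, the 14 Aldh relatives from -0.09 to 0.38, the 17 V-ATPase subunits from -0.51 to 0.36 and the 13 Ndufa genes from 0.05 to 0.30. None of these passed the test. Adam5 lost its call in 8 of 12 alternatives and Adam25 in 5 of 12, leaving out either control included.

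**Figure D4:**
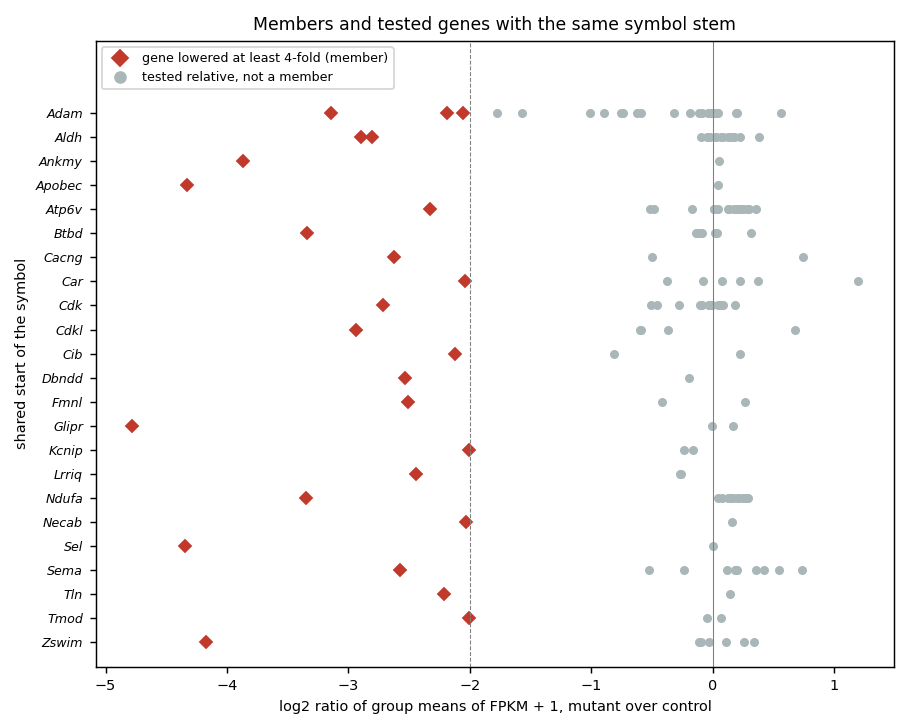
Log2 ratio of the group means of FPKM + 1, mutant over control (x axis), for genes of the 53 (diamonds) and for their tested relatives (grey points), by shared start of the symbol (y axis). The dashed line marks a 4-fold lower level. Only relatives with the same symbol stem are drawn, and the lowest of these are the ADAM genes Adam25 and Adam34. Relatives taken by a close name are not drawn, among them Caps2 at -1.74. The median over all 142 relatives, drawn or not, was 0.03.

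Symbol families were counted over all tested genes, in part because some families gave several of the 53. Of 176 tested Fam genes, 5 were among them (2.84%), 3 of 150 Tmem genes (2.0%), 3 of 26 Adam genes (11.5%), 1 of 7 Zswim genes, 1 of 261 Zfp genes and 1 of 189 Slc genes. Genes at least 4-fold lower made up 1.0% of all genes past the filter, the families that were set aside included. The family counts are of the 53 alone, so the like base for them is 53 of 12985 genes past the filter.

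Lists of genes with roles like those of the 53 were also examined outside the 53 themselves. The list of axoneme, basal body and cilium genes held 96 such tested genes, of which 10 were lower, 3 were higher and 83 were not called in limma, beside 2.52% lower and 0.308% higher over all genes tested. The lower count depended on the samples and settings: with Fam161a and Capsl included it was 12, and it became 1 without control 1, 3 without control 2, 22 without mutant 2, 4 without a filter on low values and 5 with median-ratio scaling. Among the lower genes, Dynlrb2, a dynein light chain, was at 47.8 and 35.3 FPKM in the mutants against 134 and 116 FPKM in the controls, and it fell by 1.58 on the log2 scale (standard error 0.19, adjusted p = 0.00371 in limma). Enkur, a sperm axoneme protein that binds calcium channels, fell by 1.504 (standard error 0.17, adjusted p = 0.00246 in limma). Gas8, of the dynein regulatory complex, fell by 1.37 (standard error 0.20, adjusted p = 0.00844 in limma). Zbbx fell by 1.82 (standard error 0.34, adjusted p = 0.0314) and Dcdc2a, a doublecortin-domain protein, by 1.51 (standard error 0.21, adjusted p = 0.00662 in limma). The higher genes were the intraflagellar transport genes Ift74 (log2 fold change 0.94, standard error 0.17, adjusted p = 0.0253 in limma) and Ift81 (0.82, standard error 0.17, adjusted p = 0.0453) and the microtubule-associated Ribc2 (0.93, standard error 0.16, adjusted p = 0.0222). Of the 12 alternatives tried, the lower genes Enkur, Dynlrb2, Gas8 and Zbbx lost their call in 0, 1, 4 and 6. Dcdc2a lost its call in 1 of 9. The higher genes Ift74, Ribc2 and Ift81 lost theirs in 5, 6 and 8 of 12, leaving out either control among them. Fam161a and Capsl of the 53 stand on this list.

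Fewer genes of the other lists passed the test, and 2.52% of all genes tested were lower. Of 54 tested kinase, phosphatase and partner genes besides Cdk20 and Cdkl1, 4 were lower (7.41%) and 0 higher. These were Dusp13 (log2 fold change -1.84, standard error 0.19, adjusted p = 0.00148 in limma), Stk33 (-1.45, standard error 0.17, adjusted p = 0.00287), Ulk4 (-1.11, standard error 0.17, adjusted p = 0.0137) and Plk1s1 (-0.82, standard error 0.16, adjusted p = 0.0341). Of 54 ubiquitin-system genes besides Btbd16, Zswim2 and Sel1l2, 2 were lower (3.70%), Rnf32 (-1.43, standard error 0.16, adjusted p = 0.00222 in limma) and Fbxw10 (-1.29, standard error 0.16, adjusted p = 0.00429). Of 49 channel, transporter and membrane genes besides Tmem89, Tmem190 and Tmem225, 2 were lower (4.08%), Tmem232 (-1.43, standard error 0.20, adjusted p = 0.00707 in limma) and Tmc5 (-0.91, standard error 0.18, adjusted p = 0.0395). Of 44 metabolic genes besides Apobec4, 3 were lower (6.82%), Aldoart1 (-1.37, standard error 0.26, adjusted p = 0.0343 in limma), B4galnt3 (-1.18, standard error 0.20, adjusted p = 0.0215) and Mdh1b (-1.03, standard error 0.17, adjusted p = 0.0191). Of 61 DNA- and RNA-binding genes besides Zfp474 and Zswim2, 2 were lower (3.28%), Zbbx and the targeted Rfx2 (-1.43, standard error 0.19, adjusted p = 0.00617 in limma). No gene of these 5 lists was called higher. Dusp13, Stk33 and Rnf32 lost their call in 0 of 12 alternatives, Fbxw10 in 2, Rfx2 in 3, and Ulk4 and Tmem232 in 4. Aldoart1 and Mdh1b lost theirs in 5 of 12, Zbbx in 6, and Plk1s1 and Tmc5 in 7. B4galnt3 lost its call in 3 of 9. With genes of the 53 included, the lists held 4 to 6 lower genes each, 0 to 3 without control 1 or without control 2, and 13 to 18 without mutant 2. The median log2 fold change of the tested genes outside the 53 lay between -0.21 (cilium list) and -0.0031 (metabolic list), beside 0.03 over all genes tested.

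The samples of each genotype were not alike, and this shows in the 53 genes. FPKM was higher in control 1 than in control 2 for 50 of the 53 genes (94.3%), beside 92.2% of the other lowered genes and 41.0% of all genes past the filter. In 38 genes the deposited bounds of the controls did not overlap, always with control 1 higher, and in 14 the controls differed by more than 1.5-fold. These counts were not set beside a share over all genes past the filter. Mutant 2 was above mutant 1 for 32 of the 53 (60.4%), beside 31.9% of the genes past the filter. Thus the order of the controls was nearly uniform over the 53 genes, and that of the mutants was mixed. In 15 genes the bounds of the mutants did not overlap, with mutant 2 higher in 10 and mutant 1 higher in 5. The median difference on the log2(FPKM + 1) scale was 0.31 between control 1 and control 2 and 0.04 between mutant 2 and mutant 1. Both mutants were under 1 FPKM for 30 of the 53 genes, which limits how far the mutants of these genes can differ on that scale.

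Marker genes of spermatid stages moved between samples too. The 14 elongating spermatid markers in the files, such as the protamines and transition proteins, summed to 3867 and 9349 FPKM in mutants 1 and 2 and to 10796 and 7738 FPKM in controls 1 and 2. Ldhc alone gave 2379 and 2426 FPKM of the mutant sums and 2602 and 2155 FPKM of the control sums. It thus differed little between samples and made up most of the sum in mutant 1. The median of the 14 markers was 1.46 higher in mutant 2 than in mutant 1 and 0.48 higher in control 1 than in control 2 on the log2(FPKM + 1) scale. Prm1, which packs sperm DNA, was at 136 and 1195 FPKM in the mutants against 1792 and 1266 FPKM in the controls. Some other markers of this stage were lower in mutant 1 alone. Oaz3 was at 221 and 554 FPKM against 333 and 287 FPKM, and Smcp, a protein of the sperm mitochondrial capsule, was at 276 and 705 FPKM against 466 and 369 FPKM. Mutant 2 was thus above both controls for Oaz3 and Smcp. Apart from Car2, which is one of the 53, none of the 14 was called in limma. The 14 round spermatid markers summed to 2208 and 2983 FPKM in the mutants and to 2671 and 2117 FPKM in the controls. None of them was called. The 9 spermatocyte markers summed to between 599 and 742 FPKM over the 4 samples, and none was called. The part of these cell types in the levels of the 53 genes was not tested.

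**Figure D5:**
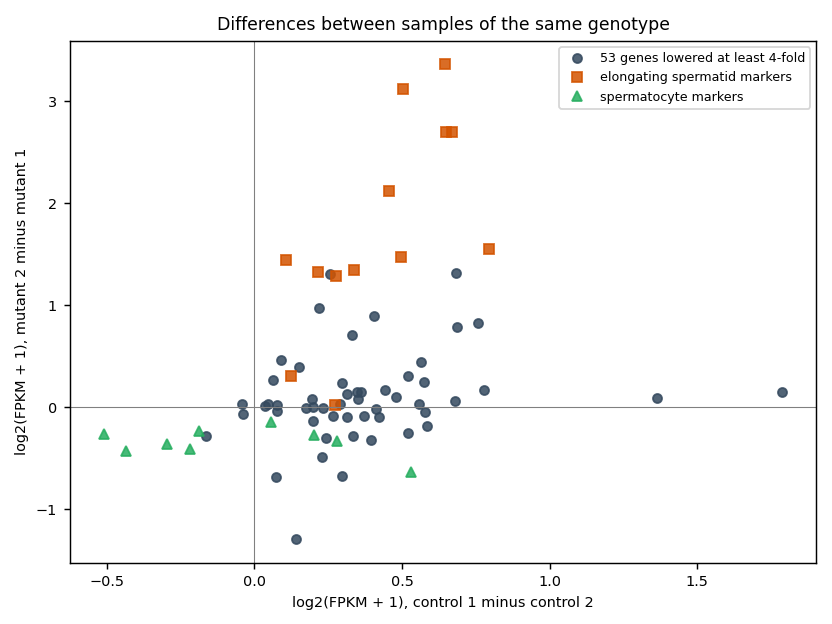
Difference in log2(FPKM + 1) between control 1 and control 2 (x axis) and between mutant 2 and mutant 1 (y axis) for the 53 genes, for elongating spermatid markers without Car2 and for spermatocyte markers. The 53 genes lie mostly right of 0 on the x axis (median 0.31) and around 0 on the y axis (median 0.04), whereas the elongating spermatid markers lie above 0 on the y axis. Both mutants were under 1 FPKM for 30 of the 53 genes, which limits how far these can lie from 0 on the y axis.

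Markers of other cell types were also looked up. No marker of spermatogonia (9 genes tested), Sertoli cells (10), Leydig cells (7), peritubular myoid cells (6), macrophages (8), endothelial cells (3), red blood cells (5) or the epididymis (1) was called in limma in either direction. The median log2 fold change was 0.07 for spermatogonia, 0.11 for Sertoli cells, 0.55 for Leydig cells, -0.11 for myoid cells, -0.13 for macrophages, 0.01 for endothelial cells, -0.56 for red blood cells and 0.49 for the single epididymal gene. Several of these markers differed between the controls. On the log2(FPKM + 1) scale the median was 0.57 higher in control 1 than in control 2 for Leydig cells, and it fell by 0.52 from control 2 to control 1 for Sertoli cells, by 0.50 for spermatogonia and by 0.92 for red blood cells. Leydig cell markers summed to 396 and 140 FPKM in controls 1 and 2 and to 461 and 245 FPKM in mutants 1 and 2. The part of these cell types in the levels of the 53 genes was not tested either. The epididymal markers Lcn5 and Lcn8 stayed under 0.1 FPKM in all 4 samples.

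Some of the 53 genes had another lowered gene near them in the genome. A gene at least 4-fold lower lay within 50000 bases of 7 of the 53 (13.2%), of 9.59% of the other lowered genes with a position and of 2.18% of the genes past the filter. The 7 count Aldh3b1 and Aldh3b2 each as the neighbour of the other, and they include Lrriq4, which overlaps its neighbour. Lrriq4 and the leucine-rich repeat gene Lrrc34 overlap in exons on opposite strands, and Lrrc34 was at 19.2 and 18.1 FPKM in the mutants against 131 and 122 FPKM in the controls. Reads from Lrriq4 and Lrrc34 cannot be told apart without strand. Cib4 lies 1494 bases from 1700001C02Rik, which was at 0.0648 and 0.228 FPKM against 56.2 and 54.7 FPKM. Gm4871 lies 10225 bases from 1700018F24Rik, at 3.99 and 5.17 FPKM against 75.8 and 66.4 FPKM. Ms4a13 lies 38539 bases from 1700017D01Rik, at 0.301 and 0.431 FPKM against 83.8 and 78.2 FPKM. These RIKEN genes all stood higher in the controls than the member next to them. Adam39 lies 25705 bases from 4930529F22Rik, and the pair of Aldh3b genes has been described above.

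Among the 53, gene starts facing another start within 1000 bases were rare. A start on the opposite strand lay that near for 3 of the 53 genes (5.66%) and for 17.0% of the genes past the filter. These were Apoh with Prkca, Cdkl1 with 4930512B01Rik and Tmem190 with Il11. Il11, the only neighbour of the 3 that passed the filter, was at 0.438 and 1.34 FPKM in the mutants and 2.79 and 1.92 FPKM in the controls. The DNA within 300 bases of the starts of the 53 genes had a median GC content of 54.2%, against 53.1% for the other lowered genes and 60.9% for the genes past the filter.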

How the data were processed

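Reads were mapped by the authors to mm9 using TopHat2 (2.0.6 in the submitters' processing notes). The authors deposited, per sample, Cufflinks FPKM of each gene with confidence bounds. FPKM are scaled by transcript length and depth. Read counts were not used here, so the depth behind each value was taken from the bounds. Standard errors and p-values rest on the spread between 2 samples per group, which limma draws towards the spread of other genes at a similar level. They are therefore not a measure of the replicates of that gene alone.

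Entries with the same symbol were summed (22311 symbols). Genes reaching an FPKM of 1 in 2 or more samples were fitted with limma 3.58.1 in R 4.3.3 on log2(FPKM + 1) with a trend, two-sided, adjusted over 12985 genes, and the functions were checked on data with known answers. Tables used Python 3.11.15. The 53 genes and all lists were chosen with earlier results of these data known, and the role groups and relatives after values were seen. Of the 53 genes 52 are named (1 is not reported here), beside the called genes of each list (at most 5 in each direction), the called relatives and 5 genes outside the threshold. Starts are the most upstream annotated ones in NCBIM37 (GENCODE M1), and 49 symbols of the 53 are current in RefSeq.

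Alternatives were a pseudocount of 0.1 or none, other filters, median-ratio scaling, the highest entry per symbol, no trend, a replicate block, left-out samples, and other windows, starts or mismatches for X-boxes.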

Additional observations from a re-analysis of the deposited data

How the results depend on the processing

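None of the 462 alternative log2 fold changes of the 53 genes turned in sign. They moved beyond the spread between replicates in 101 cases, 88 of them with a pseudocount of 0.1 or none. The rule took 120 genes with a pseudocount of 0.1 and 130 genes without one, the 53 included each time, and the median log2 fold change of the 53 was then -3.68 and -3.91. It took 55 genes with median-ratio scaling and 45 with a filter at FPKM 5. Leaving out samples gave between 21 and 89 genes and medians from -2.86 to -2.44. The count was 89 without mutant replicate 2, 21 without control replicate 1 and 29 without control replicate 2. Without a control, genes low in both mutants fail the filter on 2 samples by construction.

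The genes called by limma, 327 lower and 40 higher, fell to 199 and 17 without a filter, 202 and 17 with a filter at FPKM 5, and 206 and 16 with median-ratio scaling. Leaving out samples gave 79 to 944 lower and 10 to 138 higher genes (944 and 84 without mutant replicate 2, 432 and 138 without mutant replicate 1, 79 and 17 without control replicate 1, 93 and 10 without control replicate 2), the lone sample being assumed to vary like the others. With the replicate block 525 were lower and 70 higher. Same-numbered samples share only a number, their deviations correlated at -0.15 across genes, and the crossed replicate block, chosen after seeing the data, gave 266 and 28. The 26 called genes of the lists and relatives (the relatives examined after seeing the data) kept their sign in all 294 alternatives and lost the call in 94. Counts of lower genes on the lists moved by over 1.5 times in 31 of 72 alternatives.

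X-box shares of the 53 genes and of all tested genes were 73.6% and 47.9% with 1 mismatch within 1000 bases, 41.5% and 9.71% with 1 mismatch within 100 bases, 9.43% and 2.83% within 300 bases, 17.0% and 7.37% at any annotated start (chosen after seeing the data), and 8.57% and 2.44% in the RefSeq promoter table (GRCm38.p6, with 35 of the 53 genes).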
